A study of Mus musculus with 48 samples.

Results

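The mitochondrial ribosomal proteins were described in NMM cells, an NRAS-mutated mouse melanoma line given cytokines in culture. They were the protein-coding genes whose symbol begins with Mrpl or Mrps, which picked 78 of 49671 genes in the count table, 49 Mrpl and 29 Mrps. Of these, 77 passed the filter on low counts, which 12203 genes passed in all. Mrpl53, a large-subunit gene, had 3 counts over 48 libraries and was not tested. Of the length of its exons, 88.0% lies under the same-strand gene Gm42688. That gene held 635 counts, and how reads of the overlap were assigned was not tested.

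The 12 groups were unstimulated cells, IL-2 at 6000 U/ml, IFNA1 at 5000 U/ml, TGFb at 10 ng/ml, lymphotoxin A1 B2 at 2 ng/ml, TNFa at 0.1, 1 and 10 ng/ml, IFNy at 0.01, 1 and 100 ng/ml, and IFNy at 100 ng/ml with TNFa at 10 ng/ml, called the combination here. All groups share the NRAS-mutated line and genotype, and stimulation was continuous for 2, 6, 12 or 24 h with 1 library for each group and duration. The 4 libraries of a group are therefore durations and not replicates, and the labels name no separate cultures. RNA came from bulk cultures, so that fewer cells with a transcript and less of it per cell cannot be told apart.

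Mitochondria keep a small genome of their own, and the mitochondrial ribosome translates its messages into core subunits of the respiratory chain and the ATP synthase. Its ribosomal RNAs are transcribed inside the organelle, whereas its proteins are encoded in the nucleus, made in the cytosol and imported. Some of these proteins have a counterpart in the bacterial ribosome, and others occur only in mitochondria. Among the large-subunit members, 30 had a bacterial homologue and 21 did not, and among the small-subunit members the numbers were 16 and 10. Mrps18a and Mrps30 were counted with the large subunit, where their proteins sit despite the symbols. Mrps36, since reassigned to the 2-oxoglutarate dehydrogenase complex, was placed in neither subunit.

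Libraries held 5612907 to 9663207 counts, of which the members took 13036 to 25846, and the 95% Wilson interval of the member share in a library spanned no more than 0.00415 percentage points on each side, counting error only. Of 7 melanocyte lineage genes only Mitf passed the filter, with 2555 counts over all libraries. Pmel held 152, Tyr, Tyrp1 and Sox10 held 2 each, and Dct and Mlana held 0. The 7 T and NK cell markers held 1 count together. Of the macrophage markers, Cd14 held 16765 counts and Cd68 1221, but Ptprc 14, Csf1r 21, Itgam 3 and Adgre1 0. Of the fibroblast markers, Dcn held 7483, Pdgfra 2906, Col1a2 339, Col1a1 161 and Lum 8, and of the endothelial ones Cdh5 held 2381, Pecam1 39, Tek 11 and Kdr 6.

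Levels were compared between members as CPM (normalised counts per library of equal size) divided by transcript length in kb. The length was that of the longest annotated protein-coding transcript, which need not be the one expressed here. On this scale Mrpl20, a large-subunit protein with a bacterial counterpart, was highest at 66.8 CPM per kb, followed by Mrpl42 at 65.5 and Mrpl52 at 63.7. Mrpl12, the stalk protein that bacteria call L7/L12 and that contacts translation factors, stood at 58.2. The lowest were Mrpl48 at 4.24 and Mrps25 at 5.45, and the median was 20.3. The order depends on the length taken, which was 4285 bases for Mrpl48 and 6073 for Mrps25 against 764 for Mrpl20. Before division Mrpl48 and Mrps25 had means of 18.2 and 33.1 CPM, and Mrps36 had 6.06. The 4 classes differed little in their medians, which ran from 18.7 for small-subunit proteins without a bacterial homologue to 21.6 for large-subunit proteins with one. Members varied less over the 48 libraries than the tested genes as a whole, with a median SD of log2 CPM of 0.16 against 0.26. The 5 annotated pseudogenes of the family held 96 counts against 921073 for the members (0.0104%).

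The clearest movement of the members was with time in culture. Together they took 0.226 to 0.248% of all counts at 2 h (median 0.238%), 0.245 to 0.293% at 6 h (median 0.271%), 0.2402 to 0.2757% at 12 h (median 0.262%) and 0.231 to 0.269% at 24 h (median 0.255%). The share was higher at 6 h than at 2 h in 12 of 12 groups, unstimulated cells included, while the ranges of the 2 durations overlapped at their edges. At 24 h it was below the 6 h value in 11 of 12 groups, all but IFNy at 100 ng/ml. In unstimulated cells the share was 0.248% at 2 h, 0.290% at 6 h, 0.270% at 12 h and 0.269% at 24 h. The share of transcripts from the mitochondrial chromosome moved otherwise, with medians of 1.28%, 1.14%, 0.794% and 0.807% at 2, 6, 12 and 24 h. Libraries of 12 h and 24 h carry again the index sequences of those of 2 h and 6 h. For both shares, duration and set of libraries therefore cannot be told apart between 6 h and 12 h or 24 h.

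**Figure D1:**
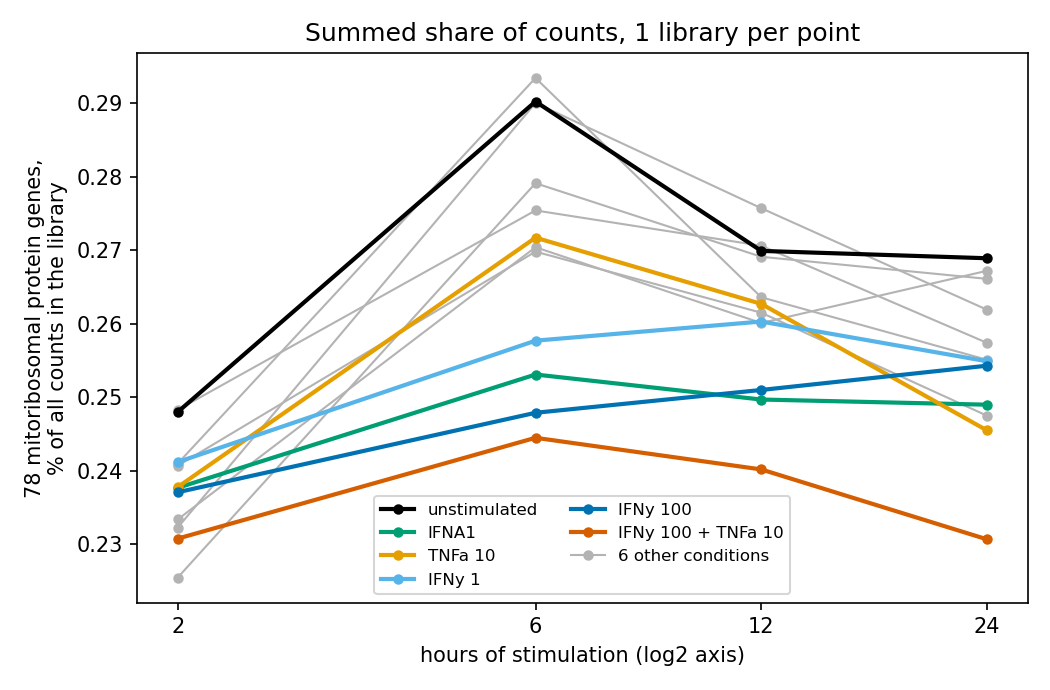
Share of all counts taken by the 78 members (percent, y axis, not starting at 0) against hours of stimulation, 1 point per library and 1 line per group. The share was higher at 6 h than at 2 h in all 12 groups and lower at 24 h than at 6 h in 11 of them. Duration and set of libraries cannot be told apart between 6 h and 24 h.

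The test of 6 h against 2 h, fitted over all groups, called 39 members higher and 4 lower, against 57.2% of all tested genes called (29.6% higher and 27.5% lower). The higher members made up 50.6% of the 77. Their median log2 change was 0.12, against 0.00 over all genes. No member reached a 2-fold difference in this or any other comparison. In 20 members the 6 h library was the higher in every one of the 12 groups, and Mrps18a was the 1 member lower in every group. How many of all tested genes did either was not counted, so that neither number has a background here. In the 5 groups with few or no called genes (unstimulated, IL-2, lymphotoxin and the lowest doses of TNFa and IFNy), 40 members were higher and 0 lower, against 46% of the genes tested there called (22.7% higher and 23.2% lower). Of these 40, 35 were also called over all groups.

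By role, 9 of 10 small-subunit proteins without a bacterial homologue were higher at 6 h than at 2 h and 0 lower, with a median log2 change of 0.26. Small-subunit proteins with a homologue had 6 of 16 higher and 0 lower (median 0.11). For the large subunit, 17 of 30 with a homologue were higher and 2 lower (median 0.15), and 7 of 20 without one were higher and 2 lower (median 0.10). The differences between the classes were not tested. Of the stalk and its base, Mrpl12 (0.30 ± 0.05, adjusted p = 1.8e-06) and Mrpl10, which anchors it (0.16 ± 0.04, adjusted p = 0.000203, both edgeR quasi-likelihood test with Benjamini-Hochberg adjustment), were higher, while Mrpl11, at the stalk's base, was not called.

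Mrps26, a small-subunit protein specific to mitochondria, moved most. It stood at 16.4 to 25.01 CPM at 2 h (median 20.6) and 23.8 to 36.9 CPM at 6 h (median 31.1). The ranges overlapped at their edges, and the log2 change was 0.57 ± 0.07 (edgeR quasi-likelihood test, adjusted p = 5.9e-09). By 24 h it had a median of 22.7 CPM. Mrpl49, a large-subunit protein without a bacterial homologue, went from 25.2 to 29.6 CPM at 2 h to 32.4 to 40.9 CPM at 6 h. All 12 libraries at 6 h lay above all 12 at 2 h, and the log2 change was 0.48 ± 0.04 (adjusted p = 3.31e-12, same test). Mrpl44, which carries an RNase III-like fold, stood at 26.9 to 35.9 CPM at 2 h and 36.6 to 44.6 CPM at 6 h, again without overlap (0.42 ± 0.05, adjusted p = 9.54e-10). Mrps2 and Mrpl19, small- and large-subunit proteins with bacterial counterparts, were the only other members with no overlap (log2 changes of 0.34 and 0.34). How many of all tested genes lacked overlap was not counted. Mrpl36, a large-subunit protein with a bacterial counterpart, had medians of 16.1 and 22.1 CPM (0.46 ± 0.08, adjusted p = 4.99e-06). Mrpl57, Mrps34, Mrps23 and Mrps25 completed the 10 members with the largest increases, at 0.43, 0.40, 0.37 and 0.35. Exons of Mrps34 lie over those of Mapk8ip3 on the opposite strand for 63.4% of their length and of Nme3, which held 0 counts, on the same strand for 37.0%, and those of Mrps25 over Nr2c2 on the opposite strand for 69.8%. Those of Mrpl19 lie over Gcfc2 on the opposite strand for 36% of their length. The strand setting of the counting is not given in the sources used here, so that reads of these genes may not be separable.

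Lower at 6 h were Mrpl23 (-0.21 ± 0.08, adjusted p = 0.0237, lower in 9 of 12 groups), Mrpl48 (-0.17), Mrpl33 (-0.13) and Mrps18a (-0.10). All are large-subunit proteins. Mrps18a had 38.7 to 43.9 CPM at 2 h, 36.2 to 41.8 at 6 h, 35.6 to 41.3 at 12 h and 31.2 to 38.6 at 24 h. The ranges at 2 h and 6 h overlapped, but within each of the 12 groups the 6 h library was the lower.

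**Figure D2:**
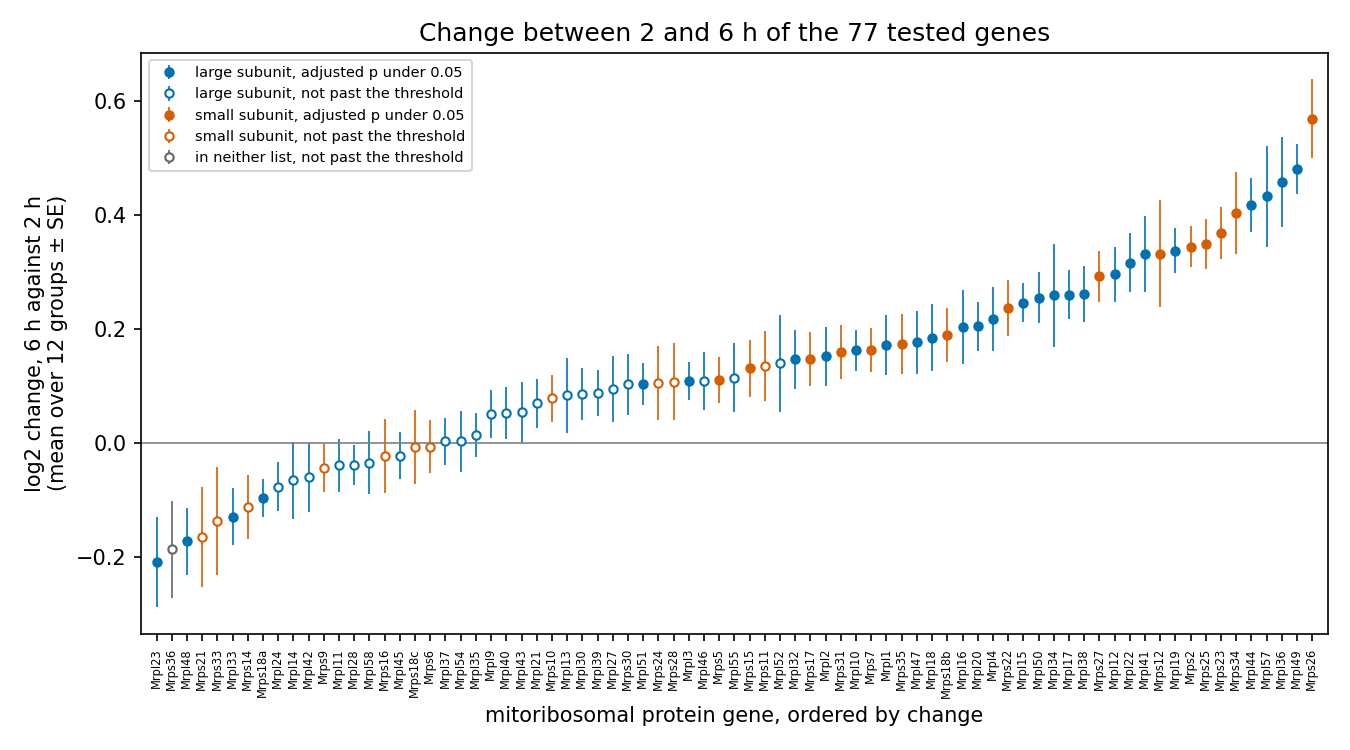
Log2 change from 2 h to 6 h, fitted over the 12 groups (y axis, with standard errors), for each of the 77 tested members in order of change (x axis). Of these, 58 lie above 0, led by Mrps26 at 0.57, and the 4 called lower reach -0.21.

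Upstream sequences of members that lead the comparisons are shown to display what precedes genes that moved with time or with cytokines. Windows of 300 bases, 250 before and 50 after each gene's start, were taken from RefSeq (GRCm38.p6) for 69 of the 78 members. Printed below are 120 bases before to 30 after the start (15 after for Mrps6), 5′ to 3′ on the gene's strand. Capitals mark matches on either strand to 4 motifs, NRF1 (GCGCA, any 1 base, then GCGC), ETS (CCGGAAG), YY1 (AAGATGGC) and the E-box CACGTG bound by Myc and its relatives.
Mrps26 (chr2:130563637-130563786, plus strand): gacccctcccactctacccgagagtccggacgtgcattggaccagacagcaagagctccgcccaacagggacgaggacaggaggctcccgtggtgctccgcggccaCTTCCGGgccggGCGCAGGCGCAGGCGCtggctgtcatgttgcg
Mrpl49 (chr19:6057726-6057875, minus strand): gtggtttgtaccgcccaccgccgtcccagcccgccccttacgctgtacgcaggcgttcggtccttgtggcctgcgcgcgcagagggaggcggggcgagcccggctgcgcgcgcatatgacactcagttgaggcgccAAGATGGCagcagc
Mrpl36 (chr13:73330889-73331038, plus strand): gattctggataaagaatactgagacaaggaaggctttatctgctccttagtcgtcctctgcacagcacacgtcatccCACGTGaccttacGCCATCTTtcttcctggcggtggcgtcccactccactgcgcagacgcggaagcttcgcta
Mrpl44 (chr1:79775898-79776047, plus strand): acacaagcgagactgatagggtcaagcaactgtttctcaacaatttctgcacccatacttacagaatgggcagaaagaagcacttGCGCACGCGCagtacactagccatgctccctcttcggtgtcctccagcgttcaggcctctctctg
Mrpl20 (chr4:155802758-155802907, plus strand): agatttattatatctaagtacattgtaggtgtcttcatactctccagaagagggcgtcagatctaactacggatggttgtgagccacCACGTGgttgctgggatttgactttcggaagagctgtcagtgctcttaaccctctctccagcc
Mrps21 (chr3:95871485-95871634, minus strand): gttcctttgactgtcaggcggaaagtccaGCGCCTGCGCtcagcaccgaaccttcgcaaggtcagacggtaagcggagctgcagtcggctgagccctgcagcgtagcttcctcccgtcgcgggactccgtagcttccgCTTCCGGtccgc
Mrps6 (chr16:92058216-92058350, plus strand): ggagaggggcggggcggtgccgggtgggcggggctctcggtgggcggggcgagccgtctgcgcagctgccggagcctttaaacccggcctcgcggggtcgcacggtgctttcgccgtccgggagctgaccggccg
Mrps26 held an ETS match and overlapping NRF1 matches, and Mrps21 an ETS and an NRF1 match. Mrpl44 held an NRF1 match, Mrpl49 a YY1 match, Mrpl36 an E-box and a YY1 match, and Mrpl20 an E-box. Mrps6 held none of the 4 in its window. The interferon-stimulated response element (TTTC, any 2 bases, then TTTC) was in the full windows of Mrps21 and Mrpl20, outside the stretch printed. In the printed windows no match to 1 motif overlapped a match to another. These matches are letters in a window and not shown sites of binding.

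Over the full windows, 34.7% of the 75 member windows held the ETS motif against 8.86% of 32851 windows of all genes. NRF1 was found in 17.3% against 4.6%, YY1 in 16% against 2.75%, and the E-box in 9.33% against 7.15%. The interferon-stimulated response element was found in 4% against 3.44%. Among the members higher at 6 h, ETS was in 39.4% of 33, against 34.3% of the 35 other tested members with a window, NRF1 in 18.2% against 20%, and YY1 in 18.2% against 17.1%. The E-box was in 9.09% against 5.71% and the interferon-stimulated response element in 3.03% against 5.71%. These differences were not tested. Of the 69 members, 22 had a gene starting on the opposite strand within 300 bases, Mrpl46 and Mrps11 forming such a pair of members with starts 42 bases apart.

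From 2 h to 6 h, 29.6% of all genes were higher and 27.5% lower, beside which the counts for genes that build or serve the mitochondrial ribosome are given. Of 25 assembly and rRNA modification factors, 17 were higher and 2 lower, among them the pseudouridine synthase Rpusd3 (1.37 ± 0.16), the rRNA methyltransferase Mrm1 (0.87 ± 0.10) and Ngrn (0.70 ± 0.07). Of 15 translation factors, 11 were higher and 0 lower, led by Taco1, an activator of Cox1 translation (0.75 ± 0.07). Of 22 genes for mitochondrial aminoacyl-tRNA synthetases, 13 were higher and 3 lower. Of 12 genes for mitochondrial DNA maintenance and transcription, 9 were higher and 0 lower, with the RNA polymerase Polrmt at 0.64 ± 0.07 and the helicase Twnk at 0.62 ± 0.04. The mitochondrially encoded proteins had 0 of 9 higher and 6 lower, and nuclear subunits of oxidative phosphorylation had 5 of 75 higher and 12 lower. Cytosolic ribosomal proteins, added as a comparison later than the other lists, had 3 of 81 higher and 39 lower, with a median of -0.08. Many genes of that family have near-identical pseudogenes, and their counts are uncertain on that account. Of 9 regulators of mitochondrial biogenesis, Myc (0.53, adjusted p = 1.79e-07), Esrra (0.36, adjusted p = 2e-04) and Ppargc1b (0.64) were higher, and Gabpb1 (-0.71) and Gabpa (-0.27), the subunits of the ETS factor GABP, were lower (edgeR quasi-likelihood test).

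The size of the step from 2 h to 6 h differed between groups. Of the libraries given interferon, the ratio of the member share at 6 h to that at 2 h was 1.05 with IFNy at 100 ng/ml, 1.06 with the combination, 1.07 with IFNA1 and 1.07 with IFNy at 1 ng/ml. In the other 8 groups it ran from 1.11 with IFNy at 0.01 ng/ml to 1.248 with IL-2, and it was 1.17 in unstimulated cells. With normalised levels the median log2 change of the 77 members was 0.02 with IFNy at 100 ng/ml, 0.02 with IFNA1, 0.05 with IFNy at 1 ng/ml and 0.12 with the combination. In the others it was 0.09 to 0.25, so that the combination then lay among them. The order was seen in the data and not tested, and each value rests on 1 library per duration.

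From 12 h to 24 h, 3 members were higher and 17 lower, against 32.1% of all genes called (15.2% higher and 16.9% lower). Mrpl20 fell most. It had 42.7 to 55.5 CPM at 12 h (median 49.5) and 31.9 to 47.6 CPM at 24 h (median 41.3), with overlap, and its log2 change was -0.29 ± 0.05 (edgeR quasi-likelihood test, adjusted p = 4.88e-06). Mrps25, Mrpl13, Mrpl16 and Mrpl49 followed at -0.23, -0.22, -0.22 and -0.22, and Mrpl12 fell by 0.19. Higher at 24 h were the large-subunit genes Mrpl48 (0.22), Mrpl14 (0.19) and Mrpl24 (0.16).

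Between 2 h and 24 h the members parted, with 25 higher and 14 lower against 67.3% of all genes called (34.8% higher and 32.5% lower). Mrpl44 (0.51 ± 0.05, adjusted p = 2.62e-12), Mrpl38 (0.38), Mrpl52 (0.31) and Mrps22 (0.30) were the highest. Mrpl38 had 45.4 to 55.3 CPM at 2 h and 54.9 to 79.2 CPM at 24 h, overlapping narrowly. Mrpl20 (-0.36 ± 0.05, adjusted p = 3.31e-09, edgeR quasi-likelihood test), Mrps21 (-0.33), Mrpl50 (-0.31) and Mrpl33 (-0.28) were the lowest. Mrpl20 was therefore higher than its 2 h level at 6 h (median 62.1 against 51.7 CPM) and below it at 24 h. In the 5 groups with few or no called genes, Mrps21 stood at 0.06. Mitochondrially encoded proteins had 8 of 9 lower, with a median of -0.79, and nuclear subunits of oxidative phosphorylation 41 of 75 lower and 4 higher. Libraries of 2 h and 6 h carry 24 index sequences that those of 12 h and 24 h carry again. Duration and set of libraries therefore cannot be told apart between 2 h or 6 h and 12 h or 24 h.

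The question for each cytokine was which transcripts it changed against unstimulated cells, as a mean over the 4 durations. With IL-2, lymphotoxin and IFNy at 0.01 ng/ml, 0 of 77 were called, against 0% of all genes, and with TNFa at 0.1 ng/ml 0 against 0.0164% (0.00819% in each direction). With TNFa at 1 ng/ml 0 were called against 2.72% (2.01% higher and 0.713% lower). At an unadjusted p under 0.05 there were 3, 3, 2, 2 and 6 members in these comparisons in the order given (edgeR quasi-likelihood test). Fitted changes there ran from -0.30 for Mrpl55 with IL-2 to 0.19 for Mrpl34 with lymphotoxin, with a median standard error of 0.09. Over the 11 comparisons of a stimulus with unstimulated cells, 25 members were called at least once, or 32.5% of the 77 against 52.9% of all tested genes. Over the 3 duration comparisons 62 were called, or 80.5% against 85.7%.

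With IFNy at 100 ng/ml, 2 members were higher and 8 lower, or 13% of the 77, against 22.1% of all genes called (12.8% higher and 9.3% lower). The share of members called was below that of all genes. Members higher made up 2.6%, below the 12.8% of all genes, and members lower 10.4%, close to the 9.3% of all genes. At 1 ng/ml, 2 were higher and 2 lower against 15% (9.51% higher and 5.47% lower). Mrpl13, a large-subunit protein with a bacterial counterpart, rose. Its levels at 2, 6, 12 and 24 h were 49.1, 60.7, 58.5 and 50.01 CPM in unstimulated cells and 62.2, 58.5, 95.8 and 82.8 CPM with IFNy at 100 ng/ml. The stimulated libraries were the higher at 3 of 4 durations, and the log2 change was 0.45 ± 0.11 (edgeR quasi-likelihood test, adjusted p = 0.00385). It was 0.34 ± 0.11 (adjusted p = 0.041) at 1 ng/ml and -0.02 at 0.01 ng/ml.

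Mrps21, a small-subunit protein with a bacterial counterpart, was lower. It stood at 21.2, 21.5, 17.2 and 23.7 CPM without stimulus and at 21.1, 13.7, 11.2 and 9.12 CPM with IFNy at 100 ng/ml. At 1 ng/ml the levels were 23.1, 14.97, 11.4 and 10.6 CPM. The libraries were alike at 2 h and the treated ones lower from 6 h on, with mean log2 changes of -0.62 ± 0.15 (adjusted p = 0.00316) and -0.50 ± 0.15 (adjusted p = 0.0227, edgeR quasi-likelihood test). Its change per doubling of time at 100 ng/ml differed from that of unstimulated cells by -0.35 ± 0.07 (adjusted p = 0.0023), the 1 slope called among members there against 6.9% of all genes (3.47% higher and 3.43% lower). It was not called without the 2 h or the 24 h libraries (adjusted p up to 0.383), and without 2 h the slopes of Mrpl12, Mrpl13 and Mrps26 were called instead, all higher. Unstimulated cells had the highest mean of Mrps21 among the 12 groups, and against IL-2 as the reference the change with IFNy at 100 ng/ml was -0.33 (adjusted p = 0.13).

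The other members lower with IFNy at 100 ng/ml were Mrps12, part of the decoding centre (-0.57 ± 0.17, adjusted p = 0.0125), Mrps24 (-0.34), Mrpl55 (-0.29, but 0.01 with IL-2 as the reference), Mrpl43 (-0.28), Mrpl11 (-0.23), Mrps5 (-0.21) and Mrpl28 (-0.19). Mrpl32 was higher (0.24). Mrps12 stood at 24.3, 24.7, 23.6 and 18.3 CPM without stimulus and at 16.8, 14.4, 13.1 and 16.1 CPM with IFNy, without overlap. Each of the 10 calls was lost without at least 1 of the 4 durations, as were all 4 at 1 ng/ml. The count of calls was 1 without the 6 h libraries, 1 without the 12 h libraries and 4 without the 24 h libraries. The share of all genes called in those refits is not given here.

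With IFNA1, 1 member was higher and 5 lower, against 9.27% of all genes called (6.18% higher and 3.09% lower). The members lower made up 6.49% of the 77, more than the 3.09% of all genes, a difference not tested. The median of the members was -0.09, against -0.03 over all genes. Mrpl30, a large-subunit protein with a bacterial counterpart, stood at 57.0, 64.7, 66.6 and 69.6 CPM without stimulus and at 71.7, 73.9, 87.0 and 88.8 CPM with IFNA1. The groups did not overlap, and the log2 change was 0.31 ± 0.08 (edgeR quasi-likelihood test, adjusted p = 0.00593). Mrpl50 (-0.26), Mrps25 (-0.25), Mrpl20 (-0.24), Mrps5 (-0.23) and Mrpl51 (-0.22) were lower. All 6 calls were lost without at least 1 duration, that of Mrpl30 only without 12 h (adjusted p = 0.0763). Genes of mitochondrial DNA maintenance and transcription had 5 of 12 lower and 0 higher.

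With TNFa at 10 ng/ml, 2 members were lower and 0 higher, against 17.1% of all genes called (9.83% higher and 7.3% lower). With TGFb 1 was lower and 0 higher, against 8.28% (5.02% higher and 3.25% lower). Mrps6, a small-subunit protein with a bacterial counterpart, was lower with both, at -0.27 ± 0.08 (adjusted p = 0.0177) and -0.29 ± 0.08 (adjusted p = 0.0163, edgeR quasi-likelihood test). It stood at 47.1, 46.8, 52.9 and 48.7 CPM without stimulus, at 47.5, 40.5, 34.7 and 39.7 CPM with TNFa and at 42.1, 40.9, 38.2 and 38.99 CPM with TGFb. The TGFb libraries lay below all unstimulated ones, and the TNFa libraries did so from 6 h. Mrpl51, a large-subunit protein without a bacterial homologue, fell with TNFa by 0.26 on the log2 scale (adjusted p = 0.00486). All 3 calls were lost without at least 1 duration, that of Mrpl51 only without 24 h (adjusted p = 0.0828).

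**Figure D3:**
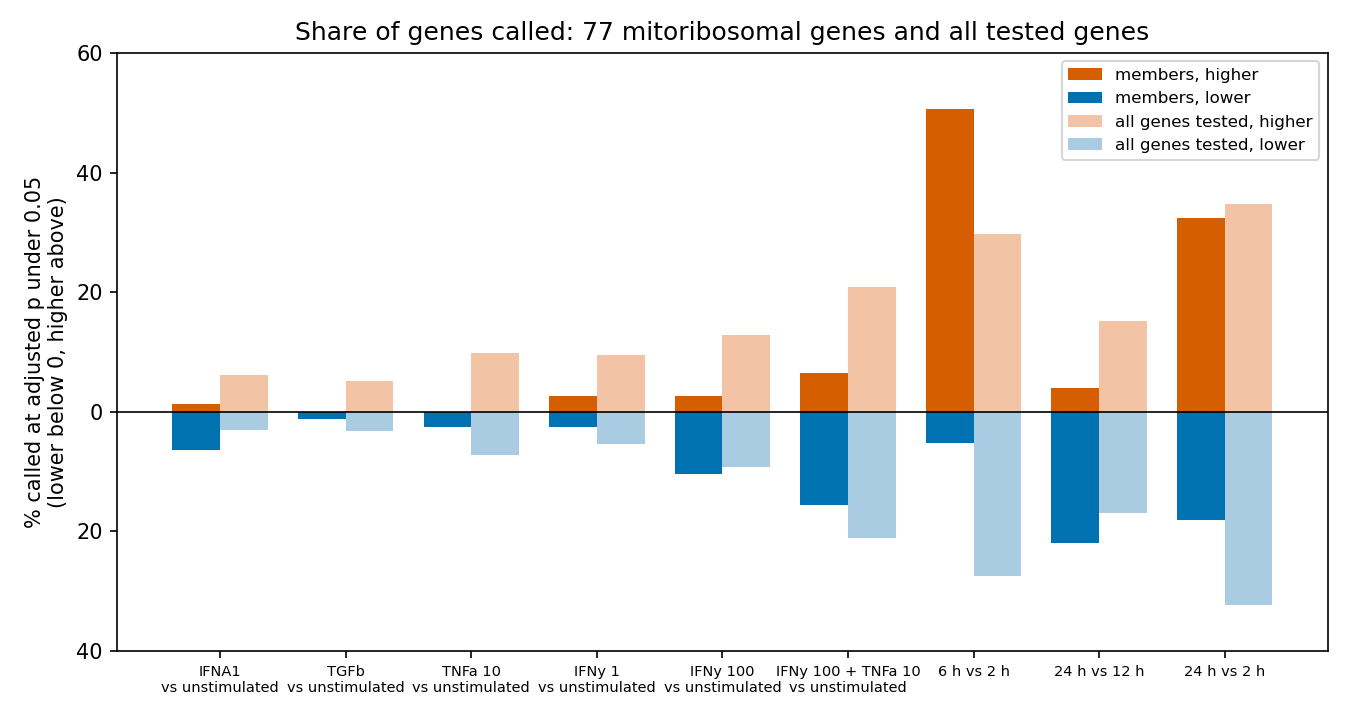
Percent of the 77 tested members and of all tested genes called in 6 stimulus and 3 duration comparisons (edgeR, adjusted p under 0.05), with bars from 0, higher upward and lower downward. With the combination, 6.49% of members were higher and 15.6% lower, against 20.9% and 21.2% of all genes, and from 2 h to 6 h 50.6% of members were higher against 29.6%.

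The combination of IFNy at 100 ng/ml and TNFa at 10 ng/ml changed the most members, 5 higher and 12 lower, or 22.1% of the 77, against 42% of all genes called (20.9% higher and 21.2% lower). Their median log2 change was -0.04 against -0.03 over all genes. Small-subunit proteins with a bacterial homologue had 1 of 16 higher and 5 lower, those without had 0 of 10 higher and 2 lower. Of the large subunit, 2 of 30 with a homologue were higher and 1 lower, and 2 of 20 without one were higher and 4 lower. The calls of Mrpl13, Mrpl27, Mrpl50, Mrps24, Mrps30 and Mrps6 held without any 1 duration, and the other 11 did not. The count was 4 (Mrpl13, Mrps24, Mrps30 and Mrps6) with the 2 compared groups alone and 0 within the 2 h and 6 h libraries. All of these except Mrps24 were also called against IL-2 in place of unstimulated cells, where Mrps24 stood at -0.15 (adjusted p = 0.317). The share of all genes called with the compared groups alone or within 2 h and 6 h is not given here. The lower counts of members there need therefore not be particular to them.

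Mrpl13 rose most with the combination. Its levels were 59.8, 79.3, 108.1 and 86.1 CPM at 2, 6, 12 and 24 h, each above the unstimulated library of the same duration. The log2 change was 0.60 ± 0.11 (edgeR quasi-likelihood test, adjusted p = 4.31e-05). With TNFa at 10 ng/ml alone the value was 0.25 ± 0.12 and not called (adjusted p = 0.133), and the combination was 0.35 higher than TNFa alone (adjusted p = 0.0293). Against IFNy alone it was 0.15 ± 0.11 higher, which was not called (adjusted p = 0.398). Mtbp, whose exons cover 4.16% of those of Mrpl13 on the opposite strand, was 0.39 higher with the combination (adjusted p = 0.00121) and 0.34 with IFNy (adjusted p = 0.0106). Whether its reads bear on Mrpl13 was not tested.

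Mrps30, a large-subunit protein without a bacterial homologue, stood at 41.04, 43.9, 49.4 and 42.8 CPM without stimulus and at 43.7, 53.3, 73.3 and 63.6 CPM with the combination. Each treated library was above its unstimulated counterpart, by a mean log2 change of 0.39 ± 0.09 (adjusted p = 0.000509, edgeR quasi-likelihood test). With IFNy alone the value was 0.19 ± 0.09 (adjusted p = 0.125) and with TNFa alone 0.07 ± 0.09 (adjusted p = 0.633). Mrpl27, a large-subunit protein near the site of peptide bond formation, rose to 22.2, 24.6, 29.98 and 25.7 CPM from 17.7, 20.98, 20.7 and 20.6 CPM. Its groups did not overlap, at a log2 change of 0.35 ± 0.10 (adjusted p = 0.00298). Mrpl39 (0.20) and Mrps10 (0.17) were the remaining members higher.

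Mrps6 fell most. With the combination its levels were 41.1, 38.1, 33.7 and 27.8 CPM, all below the lowest unstimulated library at 46.8 CPM. The log2 change was -0.48 ± 0.08 (edgeR quasi-likelihood test, adjusted p = 7.93e-06). Against IFNy alone the difference was -0.35 ± 0.08 (adjusted p = 0.00241, or 0.0701 without the 24 h libraries), and IFNy alone stood at -0.13 from unstimulated cells (adjusted p = 0.26). Against TNFa alone the difference was -0.21 ± 0.08 (adjusted p = 0.0797). Slc5a3 is a myo-inositol transporter gene on the same strand, with a start 14 bases from that of Mrps6 in RefSeq. Its exons cover 10.4% of those of Mrps6. Gm49711, not analysed here, covers 19.9% on the same strand. Slc5a3 stood at 76.1, 128, 135 and 119 CPM without stimulus and at 59.0, 57.5, 48.2 and 49.7 CPM with the combination, a change of -1.06 ± 0.14 (adjusted p = 8.51e-08). With TNFa at 10 ng/ml it changed by -0.67 ± 0.14 (adjusted p = 0.000611). Its part in the fall of Mrps6 was not tested. From 2 h to 6 h Slc5a3 rose by 0.48 (adjusted p = 2.5e-06), whereas Mrps6 was not called.

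Other members lower with the combination included Mrps24 and Mrpl42. Mrps24, a small-subunit protein with a bacterial counterpart, stood at 15.2, 17.3, 14.4 and 12.5 CPM against 19.9, 22.7, 20.7 and 17.5 CPM without stimulus (-0.45 ± 0.12, adjusted p = 0.0017). Each treated library was below all unstimulated ones. Exons of Urgcp cover 15.4% of those of Mrps24 on the same strand. Urgcp held 20352 counts over all libraries and was 0.29 higher with the combination (adjusted p = 0.00264, edgeR quasi-likelihood test). Whether its reads bear on Mrps24 was not tested. Mrpl42, of the large subunit, stood at 44.8, 34.5, 35.1 and 31.6 CPM against 42.6, 44.2, 58.2 and 50.5 CPM (-0.42 ± 0.11, adjusted p = 0.00132), lower from 6 h on but not at 2 h. Mrpl50 fell by 0.32 (adjusted p = 0.00141, edgeR quasi-likelihood test for these 3 members). Mrps21 (-0.42), Mrps35 (-0.31), Mrpl41 (-0.31), Mrps5 (-0.28), Mrpl11 (-0.27), Mrps17 (-0.26), Mrpl51 (-0.23) and Mrps27 (-0.21) made up the rest. Mrps21 was at -0.13 (adjusted p = 0.517) with IL-2 as the reference. The number of called members was 7 without the 24 h libraries, 11 without the 6 h libraries, 12 without the 12 h libraries and 23 without the 2 h libraries. For refits of the combination the share of all genes called is not given here.

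**Figure D4:**
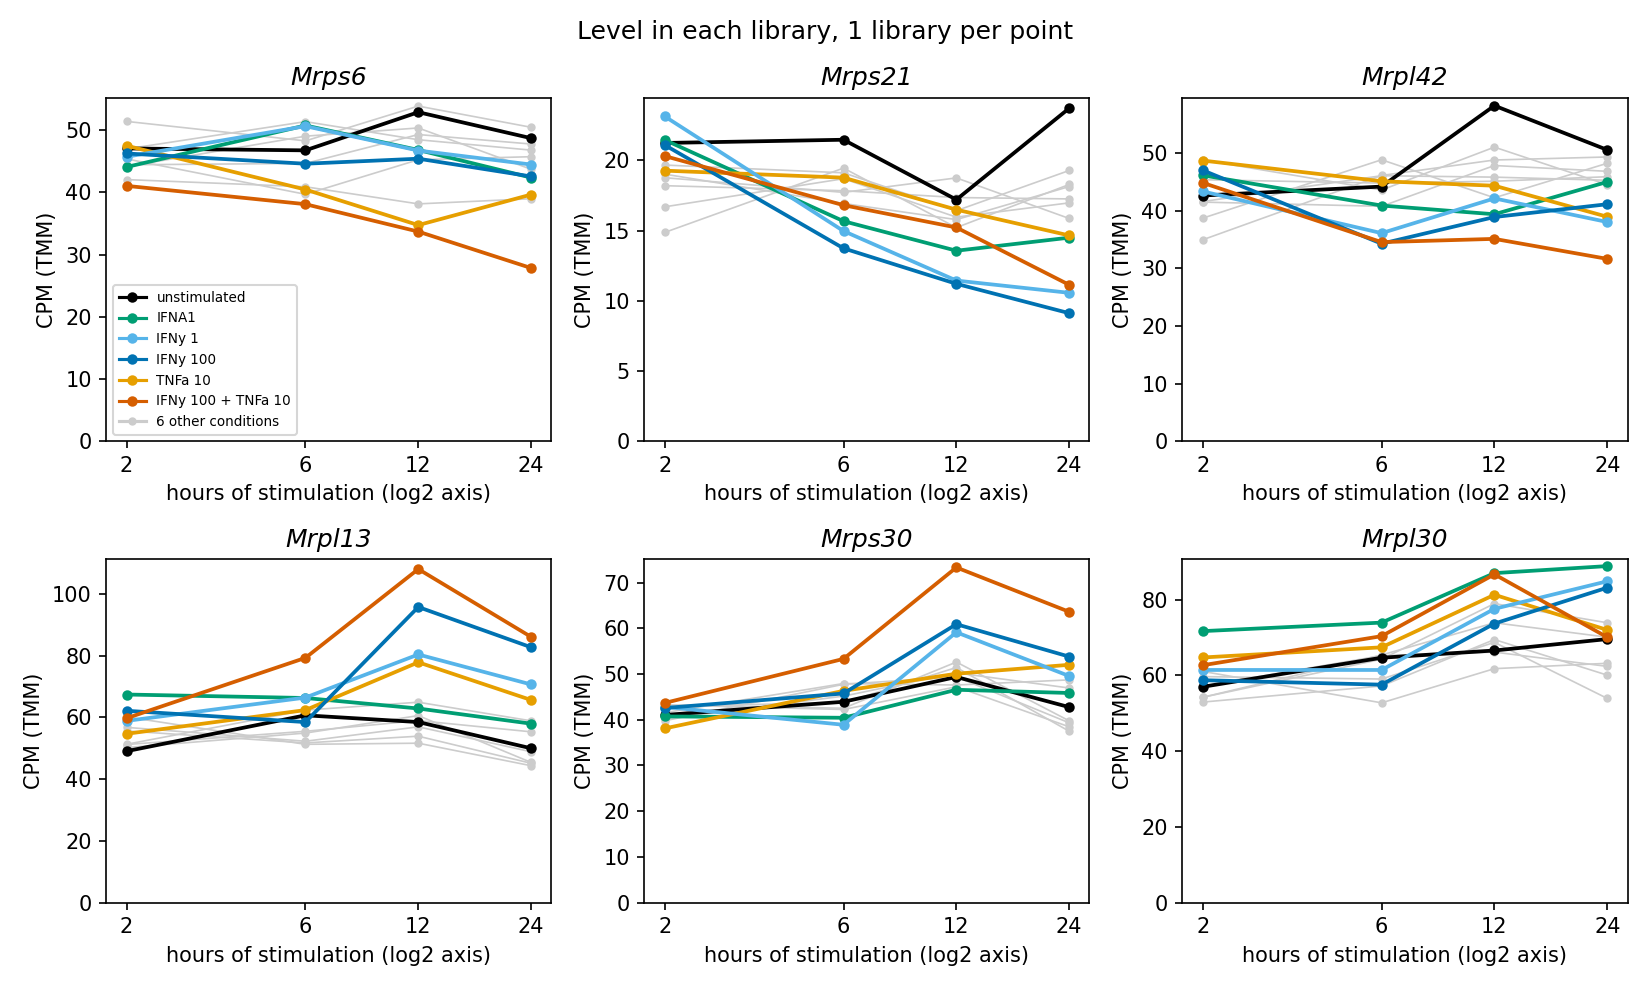
CPM (y axis, from 0) against hours of stimulation (log2 axis) for Mrps6, Mrps21, Mrpl42, Mrpl13, Mrps30 and Mrpl30, 1 point per library and 1 line per group. Mrps6 and Mrps21 were lowest at 24 h with the combination and with IFNy at 100 ng/ml, at 27.8 and 9.12 CPM, and Mrpl13 reached 108.1 CPM at 12 h with the combination.

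**Figure D5:**
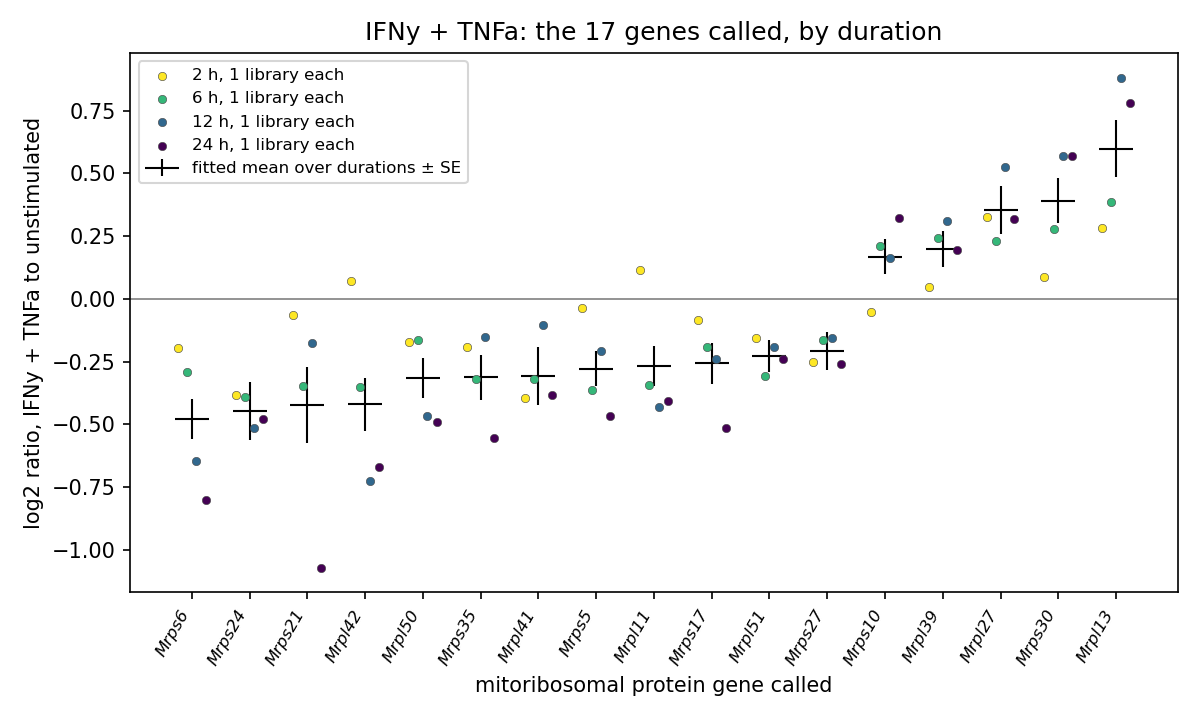
Log2 ratio of CPM, combination over unstimulated, at 2, 6, 12 and 24 h (1 library each) for the called members. Mrpl13 and Mrps30 lie above 0 and Mrps6 and Mrps24 below 0 at all 4 durations.

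With the combination, the difference from unstimulated cells per doubling of hours was called for 1 member above 0 and 3 below, against 17.4% of all genes (8.04% higher and 9.37% lower). It was 0.17 ± 0.06 for Mrpl13 (adjusted p = 0.039), -0.24 ± 0.07 for Mrps21 (adjusted p = 0.0167), -0.23 ± 0.06 for Mrpl42 (adjusted p = 0.00887) and -0.18 ± 0.06 for Mrps6 (adjusted p = 0.0195, edgeR quasi-likelihood test). Each was lost without at least 1 duration. For TNFa at 10 ng/ml, 0 slopes were called against 2.43% of genes, and 4 members had an unadjusted p under 0.05.

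Against IFNy alone, the combination had 2 members higher and 2 lower, against 13.9% of all genes called (8.49% higher and 5.42% lower). Besides Mrps6 these were Mrps35 (-0.31), Mrpl54 (0.27) and Mrps12 (0.56 ± 0.17, adjusted p = 0.0186, edgeR quasi-likelihood test). Mrps12 stood at 18.4, 30.5, 18.95 and 22.5 CPM with the combination, against 13.1 to 16.8 CPM with IFNy alone. Against TNFa alone, 3 were higher and 1 lower against 14% (9.12% higher and 4.84% lower), namely Mrpl13 (0.35), Mrps30 (0.32), Mrpl27 (0.29) and Mrps5 (-0.22). All 8 calls were lost without at least 1 duration. The test of whether the 2 cytokines together differed from the sum of their separate log2 changes called 0 members against 0.0819% of genes (0.0656% higher and 0.0164% lower). At an unadjusted p under 0.05 there were 4 members, among them Mrps12 at 0.77 ± 0.23 (adjusted p = 0.211).

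In the combination 20.9% of all genes were higher and 21.2% lower, and the wider mitochondrial lists are read against that. Assembly factors had 2 of 25 lower and 0 higher, translation factors 4 of 15 lower and 0 higher, synthetases 4 of 22 lower and 3 higher, and mitochondrial DNA genes 4 of 12 lower and 0 higher, Twnk among them (-0.42 ± 0.07). The nuclear subunits of oxidative phosphorylation had 20 of 75 lower and 1 higher, with a median of -0.15. With IFNy at 100 ng/ml, where 12.8% of all genes were higher and 9.3% lower, they had 18 of 75 lower and 0 higher. Among regulators, Myc (0.47, adjusted p = 0.00372), Esrra (0.35), Gabpb1 (0.22) and Pprc1 (0.20) were higher in the combination and 0 of 9 lower.

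The median correlation between members was low. Over 2926 pairs and 48 libraries, which share durations and stimuli, Pearson's r of log2 CPM had a median of 0.14 and ran from -0.75 for Mrpl38 with Mrps14 to 0.82 for Mrpl20 with Mrpl3, as a description. After stimulus and duration terms were removed the median was 0.11. Counting error lowers such values, and no other set of genes was compared. Whether members vary together cannot be read from them.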

How the data were processed

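RNA of 48 NMM libraries was sequenced as stranded poly(A) RNA. The deposited table holds unnormalised counts of reads for each Ensembl gene. Reads were aligned with HISAT to GRCm38 per the submitters' processing notes, but the sources used here give neither its version nor how reads were assigned to genes and strands. Doses come from titles, because separate dose fields read 1 where titles give 0.1 ng/ml TNFa or 0.01 ng/ml IFNy. Co-culture supernatant, named in the protocol, was not analysed here.

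The main tool was edgeR 4.0.16 in R 4.3.3, with DESeq2 1.42.0 as an alternative. The filter (minimum count 10, minimum total 15) left 12203 genes, scaled by TMM. A robust quasi-likelihood model held stimulus and duration (33 residual degrees of freedom). A second one gave each stimulus a slope on log2 hours (22 degrees of freedom). The duration term pairs libraries of equal duration across stimuli, and the pairing comes from the labels. Calls are Benjamini-Hochberg adjusted p under 0.05 over all genes, two-sided, and p-values measure only the spread between these libraries. Errors after ± are approximate standard errors, the size of the log2 change over the root of its F statistic. CPM are scaled by TMM. The genome annotation served for exon overlaps and transcript lengths, and RefSeq GRCm38.p6 for promoter windows. A further motif searched is not reported here.

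Members and gene lists were chosen with earlier results of these data known. Any member could be named, foremost the 10 largest called changes each way, and from other lists the 3 largest. Alternatives were other size factors, no filter, DESeq2, the compared groups alone, no duration term, 2 h and 6 h or 12 h and 24 h alone, 1 duration or group left out, 5 groups with few or no called genes alone and, chosen after seeing the data, IL-2 as the reference.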

Additional observations from a re-analysis of the deposited data

Results flagged for a closer look

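In 9 of 120 sets of 4 libraries, 1 library stood apart from the other 3 by the gap to its neighbour relative to the range of all 4. The sets were 12 member shares, 0 of them so marked, and the levels of 9 members in 12 groups. Chance marks about 1 in 20. The 4 libraries are durations, so that a time course can give such a gap. With TNFa at 1 ng/ml these were Mrps6 at 6 h (39.7 CPM), Mrps21 at 12 h (16.4 CPM) and Mrps12 at 6 h (26.99 CPM). In unstimulated cells they were Mrps12 at 24 h (18.3 CPM) and Mrpl51 at 6 h (44.8 CPM). The remaining ones were Mrps30 with TNFa at 0.1 ng/ml at 2 h (41.5 CPM), Mrps12 with IFNy at 1 ng/ml at 2 h (21.3 CPM), Mrpl51 with IFNy at 0.01 ng/ml at 24 h (38.6 CPM) and Mrps24 with lymphotoxin at 6 h (25.5 CPM).

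The change with time differed from that of unstimulated cells by the test of the slopes in 5 cases. Mrps21 stood at -0.35 per doubling of hours with IFNy at 100 ng/ml. With the combination Mrps21 stood at -0.24, Mrpl42 at -0.23, Mrps6 at -0.18 and Mrpl13 at 0.17.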

How the results depend on the processing

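Counts of called members are given as main value and alternatives. The share of all genes called in the same refit is not given beside them. A lower or higher count need therefore not be particular to the members. Without the filter on low counts, they were 1 with IFNA1, 1 with IFNy at 1 ng/ml, 4 with IFNy at 100 ng/ml, 2 and 1 for the combination against IFNy and TNFa alone, 13 from 12 h to 24 h and 2 for slopes in the combination. With DESeq2 they were 3 with IFNA1 and 6 with IFNy at 100 ng/ml. With the compared groups alone they were 1 with IFNA1, 1 with TNFa at 10 ng/ml, 1 and 2 with IFNy at 1 and 100 ng/ml, 4 with the combination, and 2 and 1 for it against IFNy and TNFa alone. With 2 h and 6 h alone they were 0 with IFNA1, TGFb, TNFa at 10 ng/ml, IFNy at 1 ng/ml and the combination, also against either cytokine alone, and 1 with IFNy at 100 ng/ml. With 12 h and 24 h alone the last was 5. In the 5 groups with few or no called genes they were 12 from 12 h to 24 h and 25 from 2 h to 24 h, where Mrps21 reversed to 0.062. With IL-2 as the reference they were 2 with TGFb and 2 with IFNy at 1 ng/ml, and Mrpl55 with IFNy at 100 ng/ml reversed to 0.009.

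Counts of called members were lower without pairing by duration. Without the duration block, 0 members were called with IFNA1, TGFb, TNFa at 10 ng/ml and IFNy at 1 ng/ml. There was 1 with IFNy at 100 ng/ml, 10 with the combination, and 1 and 0 for it against IFNy and TNFa alone. The share of all genes called without the block is again not given, so that the drop need not be particular to the members.

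Leaving out 1 duration or group in turn gave 0 to 6 calls with IFNA1, 0 to 1 with TGFb, 0 to 5 with TNFa at 10 ng/ml, 0 to 4 and 1 to 8 with IFNy at 1 and 100 ng/ml, 7 to 23 with the combination (11 without 6 h), 0 to 5 and 0 to 8 for it against IFNy and TNFa alone, 0 to 3, 0 to 1 and 0 to 4 for slopes of IFNy, TNFa and the combination, 42 to 46 from 2 h to 6 h, 18 to 21 from 12 h to 24 h and 35 to 40 from 2 h to 24 h. The cause of these differences was not tested. With 1 library per group and duration, no difference at a single duration has a replicate.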
